A study of Mus musculus with 16 samples.

Results

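The miR-7 family was followed in the miRNA cargo of extracellular vesicles, the membrane particles that cells release, from mouse bronchoalveolar lavage, the fluid washed out of the airways. It consists of mmu-miR-7a-5p and mmu-miR-7b-5p, which are 2 of the 1907 mature miRNAs in the deposited table. Both were chosen by name, and the family was selected on its values after bleomycin, which were known from earlier results of these data. Levels after bleomycin against normal are therefore given as a description with no test. For the members, tests are given only for differences between genotypes and for the difference between the genotypes' bleomycin responses.

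There were 4 groups of 4 libraries. Normal wild type was C57BL/6 given PBS, normal knockout was C57BL/6 Sdc1-/- given PBS, and the other groups were the same strains given bleomycin, recorded as 21 days. Sdc1 encodes syndecan-1, a cell-surface protein that carries heparan sulfate chains. Bleomycin is an antitumour drug whose lung toxicity serves as a model of fibrosis. The sources used here do not give dose, sex, age or whether each library came from a separate mouse, so p-values measure only the spread between these libraries, and the loss of Sdc1 cannot be checked in a table of miRNAs.

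MiR-7 is an old and strongly conserved miRNA. A miRNA guides silencing proteins to messenger RNAs that pair with its seed, the bases near its 5′ end. MiR-7 is best known from neurons, pancreatic islets and the pituitary, and in human lung cancer cells it has been described as repressing EGFR, the epidermal growth factor receptor. In the mouse brain it is bound by Cdr1as, a circular RNA with many miR-7 sites, which miR-671-5p in turn directs to be cut.

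Both members are shown with the seed, bases 2 to 8, in capitals, because the seed is shared and the members are told apart by a base outside it. Sequences are from RefSeq on build GRCm38.p6.
mmu-miR-7a-5p: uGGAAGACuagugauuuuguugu
mmu-miR-7b-5p: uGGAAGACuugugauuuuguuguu

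Counted from 1 at the 5′ end, the difference is A10U, with miR-7a-5p as the first and miR-7b-5p as the second. MiR-7a-5p is listed with 23 bases and miR-7b-5p with 24, but the base at position 24 is U in all 3 hairpins, so a full-length read is assigned by position 10 alone. Of 1679 mature names in the RefSeq table, these 2 were the ones with this seed. How a read with 1 mismatch was assigned is not given in the sources used here. The submitters' processing notes name GRCh38, a human build, without its role, and the human miR-7 genes give the miR-7a form.

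MiR-7a-5p comes from a pair of hairpins whose 5p arms are identical, so its row cannot be divided between them, while miR-7b-5p has a hairpin of its own. The hairpins are shown with both mature arms in capitals, since the 3p arms, unlike the 5p arms, tell the genes apart. Mir7-1 lies at chr13:58392779-58392886 on the minus strand, within Hnrnpk, and no exon of the 12 Hnrnpk transcripts that span it overlaps it, so it is intronic. Mir7-2 lies at chr7:78888277-78888373 on the plus strand between genes, 7481 bases before Aen. Mir7b lies at chr17:56242988-56243098 on the plus strand, 183 bases after the end of the long noncoding RNA AC026385.1 on the same strand, and the next coding gene, Fem1a, begins 13712 bases further on.
Mir7-1: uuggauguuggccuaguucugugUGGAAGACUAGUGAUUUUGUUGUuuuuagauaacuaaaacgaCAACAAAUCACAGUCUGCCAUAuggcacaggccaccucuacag
Mir7-2: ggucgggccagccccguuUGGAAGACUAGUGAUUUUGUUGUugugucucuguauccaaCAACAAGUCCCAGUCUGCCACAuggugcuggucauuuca
Mir7b: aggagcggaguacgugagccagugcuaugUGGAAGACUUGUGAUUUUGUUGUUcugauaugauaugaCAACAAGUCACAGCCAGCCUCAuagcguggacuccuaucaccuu

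Values are CPM, read counts scaled so that every library has the same total of miRNA reads. A CPM is a share of the profile, so more vesicles from a source and more copies per vesicle cannot be told apart. Recovered depth ran from 1094908 to 12837837 reads, and the 3 shallowest normal libraries, wild type 1 and 2 and knockout 2, held 1094908, 2556707 and 2753095. All 5 epithelial markers (the miR-200 family) were above 0 in every library and together took 1.70 to 8.79% of its reads. Markers of other sources were present too: the summed share was 2.16 to 14.3% for 5 mesenchymal, 0.00562 to 0.612% for 4 red-cell, 0.0128 to 0.0833% for 5 leukocyte and 0.0212 to 0.521% for 4 liver and muscle miRNAs.

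MiR-7a-5p, the main form, was a moderately abundant miRNA and was higher after bleomycin in both genotypes. In normal wild-type libraries 1 to 4 it stood at 564, 417, 349 and 239 CPM. In normal knockout libraries it stood at 504, 396, 514 and 307 CPM. After bleomycin the values were 933, 896, 572 and 622 CPM in wild type and 701, 813, 533 and 936 CPM in knockout.

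Within each genotype all 4 bleomycin values exceeded all 4 normal ones, narrowly: in wild type the lowest bleomycin library was 1.02 times the highest normal one, and in knockout 1.04 times. Across genotypes the ranges overlapped, since normal wild-type library 1 lay above bleomycin knockout library 3. The mean went from 392 ± 136 to 756 ± 185 CPM in wild type (SD, n = 4), 1.93-fold, and from 430 ± 98.3 to 746 ± 172 CPM in knockout (SD, n = 4), 1.73-fold. By level it was the 82nd to 112th miRNA of normal libraries and the 58th to 100th of bleomycin libraries.

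MiR-7b-5p, the minor form, was scarce in normal lavage and stood much higher after bleomycin. In normal wild-type libraries 1 to 4 it stood at 16.4, 10.6, 5.74 and 6.23 CPM, from 18, 27, 52 and 54 reads. In normal knockout libraries it stood at 4.52, 4.36, 4.36 and 2.95 CPM, from 56, 12, 56 and 28 reads. After bleomycin it stood at 84.0, 141, 142 and 29.8 CPM in wild type and at 192, 135, 108 and 107 CPM in knockout, from 210 to 1052 reads.

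The conditions did not overlap in either genotype. The lowest bleomycin library, wild type 4, lay 1.81 times above the highest normal library of its genotype, and in knockout the gap was 23.7-fold. Mean levels went from 9.74 ± 4.96 to 99.1 ± 53.5 CPM in wild type (SD, n = 4), 10.2-fold, and from 4.05 ± 0.733 to 135 ± 39.6 CPM in knockout (SD, n = 4), 33.5-fold. By level miR-7b-5p went from the 247th to 354th miRNA of normal libraries to the 127th to 191st of bleomycin libraries. Counting error was widest for the low normal values: the 18 reads of wild-type library 1 give an exact 95% interval of 9.74 to 26.0 CPM, and the 12 reads of knockout library 2 one of 2.25 to 7.61 CPM. These intervals, and the floors given for counts of 0, cover counting error only, since reads copied by PCR do not each stand for a molecule.

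**Figure D1:**
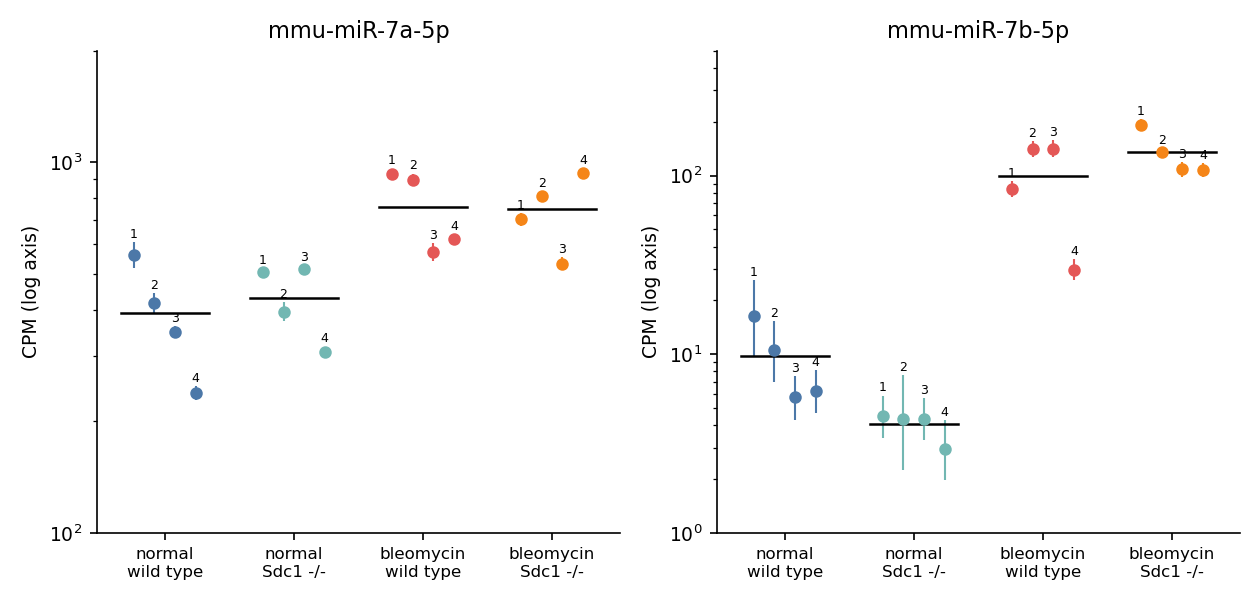
CPM of miR-7a-5p (left) and miR-7b-5p (right) on log axes in the 4 groups; each point is a library with its number, thin bars are exact 95% counting intervals and the black line is the mean of 4 libraries. The miR-7a-5p means lie between 392 and 756 CPM, while miR-7b-5p lies at 2.95 to 16.4 CPM in normal and at 29.8 to 192 CPM in bleomycin libraries.

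Among the 325 miRNAs that reached 10 CPM in at least 4 libraries, such a separation was not rare. The lowest bleomycin value exceeded the highest normal value for 15.1% of them in wild type and for 18.5% in knockout. Both members are among these in both genotypes, from which nothing is read, because the family was chosen on this contrast. MiR-7a-5p reached 10 CPM in all 16 libraries. MiR-7b-5p reached it in all 8 bleomycin libraries but in only 2 of 8 normal ones, so it entered the fit through the condition in which it is high.

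On the scale of log2(CPM + 5), fitted with limma over the 325 miRNAs, bleomycin minus normal was 0.97 (SE 0.36) in wild type and 0.79 (SE 0.36) in knockout for miR-7a-5p. For miR-7b-5p it was 2.67 (SE 0.40) in wild type and 3.92 (SE 0.40) in knockout. The median of all 325 miRNAs was -0.0045 in wild type and 0.11 in knockout. Ordered by this difference from the highest, miR-7b-5p was the 8th of 325 in wild type and the 2nd in knockout, and miR-7a-5p the 68th and the 80th. The added 5 shrinks changes of a miRNA as scarce as miR-7b-5p: edgeR on recovered reads put its log2 fold at 3.37 in wild type and 5.13 in knockout.

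MiR-21a-5p stood at 19118 to 61185 CPM in normal and at 161110 to 347743 CPM in bleomycin libraries, which lowers the CPM of all other miRNAs after bleomycin. With it removed from the totals, all miRNAs moved up by a median of 0.35 in wild type and 0.37 in knockout. The differences then became 1.34 and 1.17 for miR-7a-5p and 3.03 and 4.33 for miR-7b-5p.

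**Figure D2:**
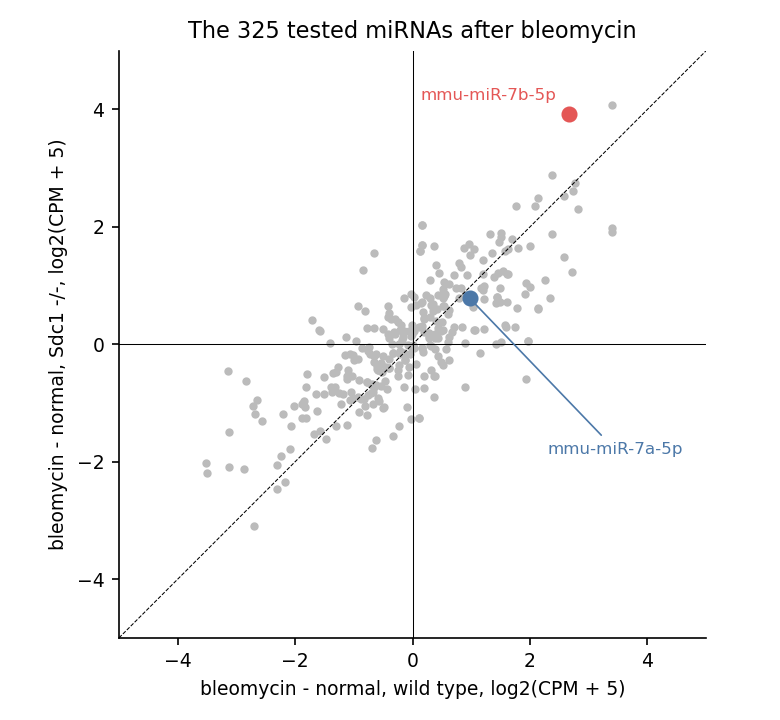
Each grey point is 1 of the 325 tested miRNAs, with its bleomycin minus normal difference of log2(CPM + 5) in wild type (x axis) and in Sdc1 knockout (y axis); the dashed line marks equal differences. MiR-7b-5p lies at 2.67 and 3.92 near the upper edge and miR-7a-5p at 0.97 and 0.79 within the cloud.

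The makeup of the family was examined next, as the share of miR-7b-5p among the reads of both members, a value that does not depend on how a library is scaled. In normal wild-type libraries 1 to 4 the share was 2.83, 2.47, 1.62 and 2.54%. In normal knockout libraries it was 0.888, 1.09, 0.841 and 0.954%. After bleomycin it was 8.26, 13.6, 19.8 and 4.57% in wild type and 21.5, 14.2, 16.9 and 10.3% in knockout.

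All 8 bleomycin libraries lay above all 8 normal ones. Nothing is read from this, because the family was chosen on this contrast and such separation was not counted for other pairs. MiR-7a-5p outnumbered miR-7b-5p by 34.3 to 118 times in normal libraries and by 3.66 to 20.9 times in bleomycin libraries. The log2 ratio of miR-7b-5p to miR-7a-5p, with 5 CPM added to each, went from -4.74 to -3.04 in wild type, a difference of 1.70 (SE 0.49), and from -5.56 to -2.43 in knockout, a difference of 3.13 (SE 0.29). The summed level of both members went from 402 to 855 CPM in wild type and from 434 to 881 CPM in knockout, and miR-7b-5p supplied 19.7% of that gain in wild type and 29.4% in knockout.

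Since reads of near-identical miRNAs can be assigned to each other, a second pair was read beside it, chosen after its values were seen. MiR-21c, which differs from miR-21a-5p at 5 positions, stood at 0.428 to 0.537 reads per 100 reads of miR-21a-5p in the 16 libraries, a range of 1.25-fold, while miR-21a-5p itself ran from 19118 to 347743 CPM. MiR-7b-5p stood at 0.848 to 27.3 reads per 100 reads of miR-7a-5p, a range of 32.2-fold. With 5 differing positions against 1, the miR-21 pair cannot show how miR-7 reads were assigned, which was not tested. Some rows of the table hold identical values, as miR-142a-3p and miR-142b did in all 16 libraries, and neither miR-7 member was identical to another row.

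The 3p arms, the passenger strands of the hairpins, were scarce. MiR-7b-3p and miR-7a-2-3p were at 0 reads in every library, which, at a floor of 3 reads, allows each between 0.234 and 2.74 CPM depending on the depth. For miR-7b-3p this held also in bleomycin knockout library 2, where its partner arm had 1052 reads and 0 reads allow up to 0.385 CPM. MiR-7a-1-3p, the arm of the Hnrnpk hairpin, was found in every library but never reached 10 CPM.

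MiR-7a-1-3p went the other way from its 5p partner. Its level was 6.39, 4.30, 3.42 and 4.16 CPM in normal wild type and 4.84, 1.45, 6.39 and 3.80 CPM in normal knockout. After bleomycin it was 1.55, 0.740, 0.908 and 1.56 CPM in wild type, from 7, 2, 2 and 11 reads, and 1.45, 0.769, 1.61 and 2.49 CPM in knockout, from 5, 6, 7 and 11 reads. The mean was 3.84 times lower in wild type, where the groups did not overlap, and 2.61 times lower in knockout, where normal library 2, with 4 reads, lay among the bleomycin libraries. How many other miRNAs separated in this direction was not counted, and miR-7a-1-3p lies outside the 325, so nothing is read from the separation.

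Of the reads of miR-7a-5p and miR-7a-1-3p together, the 3p arm took 0.366 to 1.71% in normal libraries and 0.0825 to 0.302% in bleomycin libraries. The ranges did not overlap. Such a share was not computed for other miRNAs, and miR-7a-5p, which it contains, was chosen on this contrast, so nothing is read from the separation. The counting intervals were wide, however: for bleomycin wild-type library 3, with 2 reads, the exact 95% interval was 0.0192 to 0.571%. The 5p reads in this share come from Mir7-1 and Mir7-2 together.

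**Figure D3:**
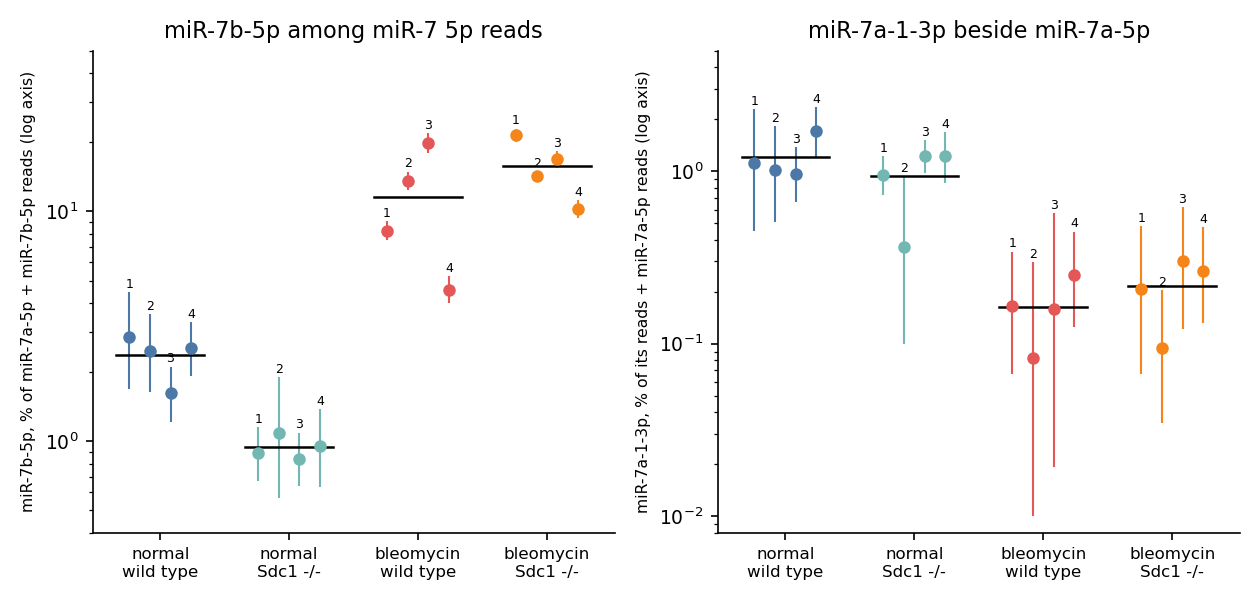
Left, miR-7b-5p as a percentage of the reads of both members; right, miR-7a-1-3p as a percentage of its own and miR-7a-5p reads; log axes, points are libraries with their number, bars exact 95% counting intervals and lines means of 4 libraries. The left share is 0.841 to 2.83% in normal and 4.57 to 21.5% in bleomycin libraries, and the right share is 0.366 to 1.71% and 0.0825 to 0.302%.

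The genotype comparison in normal lavage asked whether loss of Sdc1 changed the family without injury. MiR-7a-5p did not differ beyond its error, with a knockout minus wild-type difference of 0.17 (SE 0.36, 95% interval -0.59 to 0.93, limma adjusted p = 0.821). MiR-7b-5p was lower in all 4 knockout libraries than in any wild-type one, a separation in that direction that 2.15% of the 325 miRNAs shared. Its difference was -0.65 (SE 0.40, 95% interval -1.50 to 0.20), which did not pass (limma adjusted p = 0.365). By edgeR the log2 fold was -1.24 (adjusted p = 0.224).

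No miRNA passed limma in this comparison (0% of 325, with 58 at an unadjusted p under 0.05, and 0 by edgeR), but 64 did without knockout library 2, and neither member was among them. The log2 ratio of miR-7b-5p to miR-7a-5p was lower in knockout by a mean of -0.82 (SE 0.17). All 4 knockout libraries lay below all 4 wild-type libraries in this ratio, a separation not counted for other pairs. The two-sided exact permutation p was 0.0286, the smallest that 4 against 4 allows, and 0.0571 when adjusted over the 2 conditions, a value that cannot be lower here given the p of the other condition, so the test could not make a call. In normal wild type, libraries 1 and 2, the highest in miR-7b-5p CPM, were the shallowest of their group. In normal knockout, library 2, the shallowest at 2753095 reads, and library 3, the deepest at 12837837, both stood at 4.36 CPM. The miR-7b-5p difference of log2(CPM + 5), -0.65 with all libraries, was -0.30 when the 3 shallowest normal libraries were left out. With log2 reads as a covariate it was -0.27. Among the 5 deeper normal libraries the share of miR-7b-5p was 1.62 and 2.54% in wild type and 0.841 to 0.954% in knockout.

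The same comparison after bleomycin gave a difference of -0.016 (SE 0.36, 95% interval -0.78 to 0.75, limma adjusted p = 1.0) for miR-7a-5p. For miR-7b-5p the knockout stood higher by 0.60 (SE 0.40, 95% interval -0.25 to 1.45), with overlapping groups and no call (limma adjusted p = 0.670). Limma called 0.615% of the 325 miRNAs here, the 2 rows of equal values miR-142a-3p and miR-142b, named after their values were seen, and edgeR called 0. The mean of miR-142a-3p over the 16 libraries was 10.2 CPM, close to the filter of 10 CPM. In which libraries it reached 10 CPM was not counted, so nothing is read from this call. Its partner arm miR-142a-5p was not called, with a difference of 1.13 (SE 0.67, limma adjusted p = 0.585). The log2 ratio of the members differed by 0.62 (SE 0.54, two-sided exact permutation p = 0.286, adjusted p = 0.286 over the 2 conditions). Without wild-type library 4 the difference of miR-7b-5p was 0.14. That library had the least miR-7b-5p of the bleomycin libraries, was the deepest of its group at 7050234 reads and had the most miR-21a-5p of all libraries, 347743 CPM.

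Whether the genotypes differed in their response to bleomycin was tested as an interaction. For miR-7b-5p the response was larger in knockout by 1.25 (SE 0.57, 95% interval 0.048 to 2.45) on the log2 scale, with an unadjusted p of 0.0424 and a limma adjusted p of 0.623, so it did not pass. Without bleomycin wild-type library 4 it was 0.79. The miR-7a-5p interaction was -0.18 (SE 0.51, limma adjusted p = 0.929). Over all miRNAs 0% of 325 passed limma, with 24 at an unadjusted p under 0.05, and 0 passed edgeR. The interaction joins a lower normal and a higher bleomycin level of miR-7b-5p in knockout, neither of which passed by itself. The 95% interval of the miR-7b-5p interaction is not adjusted over the 325 miRNAs. Values after bleomycin, on which the family was chosen, enter it, so nothing is read from its lying above 0.

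**Figure D4:**
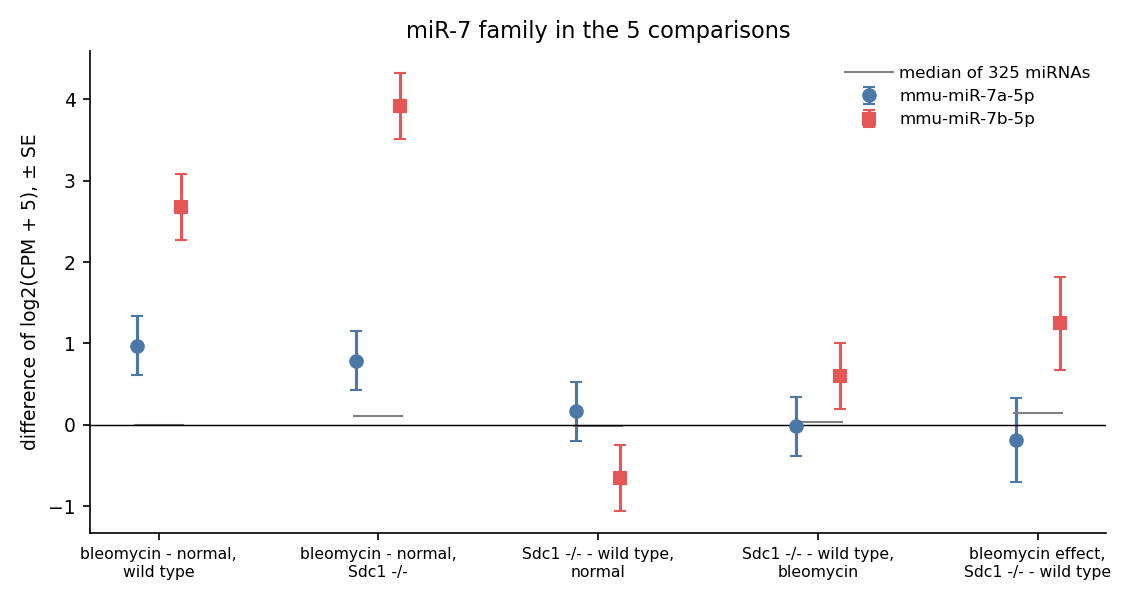
Differences of log2(CPM + 5) for miR-7a-5p (circles) and miR-7b-5p (squares) in the 5 comparisons, with bars of 1 SE from the limma fit of 16 libraries; grey dashes are medians of the 325 miRNAs. MiR-7b-5p stands at 2.67 and 3.92 for bleomycin, at -0.65 and 0.60 for genotype and at 1.25 for the interaction, and miR-7a-5p at 0.97, 0.79, 0.17, -0.016 and -0.18.

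The miRNAs whose pattern was most like each member's differed between the members. Likeness was Pearson's r of log2(CPM + 5) over the 16 libraries, a description of values that share the condition and the library, over the other 324 tested miRNAs. Nearest to miR-7b-5p were miR-184-3p (r = 0.94), miR-217-5p (0.92), miR-146b-5p (0.91), miR-183-5p (0.90) and miR-147-3p (0.89). MiR-146b-5p is induced through NF-kB in inflammation, miR-183-5p is known from sensory organs, and miR-217-5p from the exocrine pancreas. Nearest to miR-7a-5p were miR-28a-5p (0.93), miR-21c (0.90), miR-21a-5p (0.90), miR-3965 (0.88) and miR-3068-5p (0.86). MiR-21a-5p is widely described as rising in fibrotic tissue. The members' likeness to each other was 0.79, which made miR-7b-5p the 10th nearest to miR-7a-5p and miR-7a-5p the 30th nearest to miR-7b-5p.

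The levels from which r was computed are given for 3 of these. MiR-184-3p stood at 1.87 to 25.0 CPM in normal and 76.1 to 492 CPM in bleomycin libraries, and miR-217-5p at 0 to 2.74 and 5.76 to 55.4 CPM. Both were, like miR-7b-5p, scarce in normal lavage. MiR-217-5p reached 10 CPM in no normal library, so it passed the filter only through bleomycin libraries. A low normal and high bleomycin level is what r with miR-7b-5p selects, so nothing further is read from it. MiR-28a-5p stood at 20.3 to 48.4 and 59.2 to 105 CPM, a shift closer to that of miR-7a-5p.

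With each group's mean subtracted, which leaves only differences between libraries of 1 group, the nearest to miR-7b-5p were miR-200c-3p (r = 0.81), miR-193a-5p (0.81), miR-200b-3p (0.75), miR-744-5p (0.74) and miR-181b-5p (0.72). MiR-200c-3p and miR-200b-3p belong to a family that maintains epithelial identity. Its other listed markers, miR-200a-3p, miR-141-3p and miR-429-3p, were not among the nearest given here. Their bleomycin minus normal differences, which do not enter this r, were -2.68, -2.06 and -0.43 in wild type and -1.19, -1.39 and 0.66 in knockout. For miR-200c-3p and miR-200b-3p the same differences were -0.18 and -0.022 in wild type and 0.22 and 0.64 in knockout. Bleomycin wild-type library 4, lowest in miR-7b-5p among bleomycin libraries, was also the lowest of all libraries in miR-200c-3p and miR-200b-3p. It stood at 3303 CPM of miR-200c-3p and 8168 CPM of miR-200b-3p. Both values enter r, so nothing further is read from them, and an epithelial link was not tested. For miR-7a-5p the nearest were miR-362-5p (0.89), miR-151-5p (0.87), miR-28a-5p (0.86), miR-99b-5p (0.85) and miR-21c (0.81). The members' own r was then 0.36, the 43rd of 324 for miR-7a-5p and the 151st for miR-7b-5p. The median of all miRNAs was 0.32 for miR-7b-5p and -0.12 for miR-7a-5p.

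**Figure D5:**
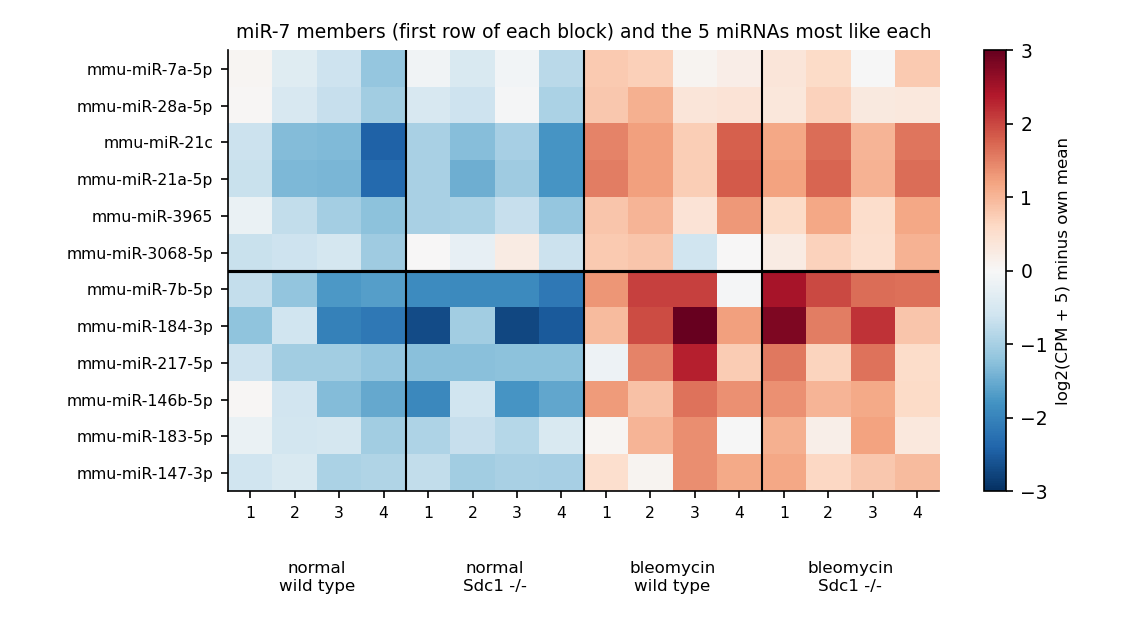
Log2(CPM + 5) minus each miRNA's own mean over the 16 libraries (columns, numbered within groups), for miR-7a-5p and the 5 miRNAs most like it (upper block) and for miR-7b-5p and its 5 (lower block). Red is above and blue below the mean; miR-28a-5p has r = 0.93 with miR-7a-5p and miR-184-3p r = 0.94 with miR-7b-5p.

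Among the miRNAs of the miR-7 circuit, miR-671-5p, which directs the cutting of Cdr1as, and its partner arm miR-671-3p were both tested, and neither was called in any of the 5 comparisons. MiR-671-5p stood at 18.6 ± 8.99 CPM in normal and 31.5 ± 30.5 CPM in bleomycin wild type, and at 10.1 ± 3.51 and 38.0 ± 25.6 CPM in knockout (SD, n = 4 each). Its bleomycin minus normal difference was 0.41 (SE 0.49, limma adjusted p = 0.549) in wild type and 1.34 (SE 0.49, limma adjusted p = 0.0554) in knockout. MiR-671-3p gave -0.69 in wild type and -0.68 in knockout. Limma called 20% of the 325 miRNAs as higher and 14.5% as lower after bleomycin in wild type, and 14.8% and 8.62% in knockout.

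Of 9 miRNAs listed as endocrine or neural, tissues in which miR-7 is known, 3 passed the filter on low values. MiR-9-5p, a regulator of neural progenitors, stood at 0 to 4.05 CPM in normal and 9.28 to 22.6 CPM in bleomycin libraries. Its mean was 1.01 ± 0.816 and 14.0 ± 5.99 CPM in wild type and 3.21 ± 1.21 and 13.9 ± 3.84 CPM in knockout (SD, n = 4 each). No normal library reached 10 CPM, so it passed the filter only through bleomycin libraries. Its bleomycin minus normal difference, given with no test, was 1.62 (SE 0.25) in wild type and 1.19 (SE 0.25) in knockout. MiR-375-3p, the islet miRNA that is also made in airway epithelium, fell in wild type (-3.12, SE 0.93, limma adjusted p = 0.0172), and in knockout its difference was -1.50 (SE 0.93, limma adjusted p = 0.258). MiR-128-3p of brain was not called, with -0.57 and -0.97. MiR-124-3p, the defining miRNA of neurons, was at 0 in all 16 libraries, and miR-137-3p was above 0 in 4. None of the 3 was called between genotypes or in the interaction. Their median difference after bleomycin, -0.57 in wild type and -0.97 in knockout, is the value of miR-128-3p.

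Markers of other sources were read beside the higher miR-7b-5p after bleomycin, with their calls to be set against the 20% higher and 14.5% lower of all miRNAs in wild type and the 14.8% and 8.62% in knockout. The leukocyte share of reads was 0.0128 to 0.0393% in normal and 0.0179 to 0.0833% in bleomycin libraries, with 2 of 5 members called higher and 1 lower in wild type and 3 higher in knockout. The knockout calls include miR-142a-3p, whose mean over the 16 libraries, 10.2 CPM, lay close to the filter of 10 CPM. Nothing is read from its call. The red-cell share was 0.00562 to 0.263% and 0.0366 to 0.612%, with 1 of the 2 tested members of 4 called higher in each genotype. The epithelial share was 4.04 to 8.79% in normal and 1.70 to 5.65% in bleomycin libraries, with 2 of 5 members called lower in wild type and 1 in knockout. The mesenchymal share was 2.16 to 14.3% and 3.61 to 5.21%, with 3 of 5 members called higher in wild type and 1 in knockout. Of the 4 liver and muscle miRNAs 0 were called after bleomycin in either genotype. No marker of these lists was at 0 in every library, and their part in the miR-7 values was not tested.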

How the data were processed

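The labels describe RNA from lavage vesicles, isolated with a QIAGEN kit and made into Illumina libraries. The authors deposited 1 table of CPM for 16 libraries. Per the submitters' processing notes Bowtie2 2.2.3 and GRCh38 were used, with no role given. The counter, the trimming and the miRBase release were not stated in the sources used here. Divided by the step of its column, 100% of the deposited values lay within 0.001 of a whole number, so whole reads were recovered. Replicates differed beyond sampling noise (chi-square per degree of freedom at least 221).

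MiRNAs at 10 CPM in at least 4 libraries, 325 of 1907, were fitted as log2(CPM + 5) with limma 3.58.1 (R 4.3.3, 4 group means, trend), with Benjamini-Hochberg adjustment per comparison at 0.05. EdgeR 4.0.16 on recovered reads was an alternative. Ratios were compared with exact permutation tests (SciPy 1.17.1, 70 arrangements). The fit was tested on simulated data. Loci came from GENCODE M21 and RefSeq. Named miRNAs were the family's rows, the 5 most like each member, and listed miRNAs. The members and lists were chosen with earlier results of these data known.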

Additional observations from a re-analysis of the deposited data

Results flagged for a closer look

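In normal knockout libraries miR-7b-5p stood at 4.52, 4.36 and 4.36 CPM in libraries 1 to 3 and at 2.95 CPM in library 4, which lay far from the others relative to the range of the group. The exact 95% counting interval of library 4, from 28 reads, was 1.96 to 4.27 CPM. Of 16 sets of 4 libraries looked at in this way (4 measures in 4 groups) this was the 1 that stood out, and chance gives about 1 in 20.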

How the results depend on the processing

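For 15 results, 404 alternative values were computed: 367 kept direction and side of the threshold or moved within the spread, 26 moved and 11 reversed. No miR-7 genotype difference or interaction passed under any alternative (lowest adjusted p 0.224 and 0.292 for miR-7b-5p, both unpassed). Bleomycin minus normal of miR-7b-5p stayed positive under all: in wild type it was 1.87 with a pseudocount of 20 and 3.37 by edgeR, in knockout 2.66 and 5.13, and 4.73 with a pseudocount of 1. It was 1.12 and 1.02 with both members summed, where miR-7a-5p dominates by construction. The sum also reversed 3 differences: miR-7b-5p in normal lavage to 0.15, its interaction to -0.10 and miR-7a-5p after bleomycin to 0.051. The last, near 0 throughout, was also positive without miR-21a-5p in the totals (0.0027) and with log2 reads as a covariate (0.027). Leaving out 1 library gave -0.14 to 0.13 for it, -0.045 to 0.36 for miR-7a-5p in normal lavage and -0.38 to 0.029 for its interaction, with the negative normal value and positive interaction without normal wild-type library 4. For miR-7b-5p leaving out 1 library gave -0.78 to -0.45, 0.14 to 0.83 and 0.79 to 1.48 for the same 3 tests, the lowest of the last 2 without bleomycin wild-type library 4.

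The number of miRNAs called after bleomycin by genotype was 2, but 0 with a pseudocount of 1, a filter of 100 CPM, only the 8 libraries compared, the replicate block or edgeR, 4 with no filter and 0 to 3 without 1 library. In normal lavage it was 0 to 64 without 1 library. For the interaction it was 2 without miR-21a-5p, without bleomycin wild-type libraries 1 and 3 or with log2 reads as a covariate, and 0 to 2 without 1 library. The causes were not tested. Median-of-ratios scaling shifted the median of all miRNAs by -0.14 for bleomycin in knockout, -0.11 for genotype after bleomycin and -0.17 for the interaction. Same-numbered libraries deviated together in 7 of 16 pairs (r over 0.1, range -0.58 to 0.80), and 4 of 16 correlated best with their own number, so the numbers do not pair the libraries. The replicate block changed no miR-7 call (interaction of miR-7b-5p 1.25, adjusted p = 0.584).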
